A study of Vulpes lagopus with 12 samples.

Results

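The proteasome genes of Arctic fox (Vulpes lagopus) blood are described here through all probe sets whose single gene symbol is PSMA, PSMB, PSMC, PSMD, PSME, PSMF or PSMG followed by a number. The rule took 84 of the 42924 tested probe sets and 42 of the 15115 genes, and where a gene had several probe sets it was read from the one that was highest on average. All 42 symbols also stand in the RefSeq annotation of the Arctic fox. That annotation names 6 further proteasome genes (PSMB7, PSMC1, PSMD1, PSMD4, PSMD5 and PSMG4) for which no probe set carried that single symbol, and 8 probe sets that pair a proteasome symbol with others were left out. By role the genes fell into 8 of the core alpha ring (13 probe sets), 7 of the core beta ring (11), 5 of the immunoproteasome (12), 5 ATPases of the cap base (10), 11 PSMD genes of the cap (25), 3 other activators and inhibitor (6) and 3 assembly chaperones (7).

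The study measured RNA labelled as blood on Affymetrix arrays with probes made for dog transcripts. It comprised 11 arrays of Arctic foxes and 1 array titled a canine control. The design text says that the foxes were analysed for polychlorinated biphenyls, which are persistent industrial pollutants, and for mercury, but the labels give no exposure, age or sex for any fox, so no exposed and unexposed foxes could be set apart. The control array has the same labels as the foxes for organism (Vulpes lagopus), tissue (blood) and source (blood cells), so only its title says what RNA it carried. The labels do not state that the 11 fox samples came from separate animals. The p-values therefore rest on the spread between these samples, which may be partly technical, and the 1 control array adds no spread of its own.

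The proteasome is the protease that degrades proteins tagged with ubiquitin. Its barrel-shaped core is made of outer alpha rings, which gate the entrance, and inner beta rings, which hold the cutting sites, and a cap of ATPases and other subunits binds, unfolds and feeds in the tagged protein. In cells exposed to interferon the beta subunits PSMB8, PSMB9 and PSMB10 replace the standard cutting subunits PSMB5, PSMB6 and PSMB7, and with the activator PSME1-PSME2 they shape the peptides shown on MHC class I. White blood cells are known to carry many of these immunoproteasomes even without infection, and red cell precursors use the proteasome heavily while they remodel their contents.

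Values are log2 array intensities made by the authors. Levels were compared between arrays and not between genes, except where low values of PSMA2 were set beside those of PSMA8 because they may lie near background. Foxes 9, 10 and 11 stood apart from foxes 1 to 8, and their values are given apart where they matter. Their arrays had a wider spread: the SD over all probe sets lay between 1.93 and 2.02, against 1.60 to 1.79 for foxes 1 to 8, and was 2.11 for the control. The signal of the GAPDH control probe set at the 3′ end minus that at the middle, a measure of RNA integrity that is higher where RNA is shorter, was 0.42 to 1.08 in foxes 9 to 11, against 2.56 to 3.19 in foxes 1 to 8, with the control at -0.08. The mean of the measured markers, centred on foxes 1 to 8, was also higher in foxes 9 to 11 than in foxes 1 to 8 for monocytes (0.88 to 1.16 against -0.38 to 0.37), T cells (0.72 to 0.87 against -0.14 to 0.30), cytotoxic cells such as NK cells (0.65 to 1.26 against -0.24 to 0.31) and platelets (0.81 to 1.12 against -0.57 to 0.58). It overlapped for neutrophils (0.78 to 2.00 against -0.61 to 0.81) and for red cell precursors (-0.06 to 0.11 against -0.42 to 0.43). For B cells it overlapped too, with foxes 9 to 11 at the low side (-0.29 to -0.06 against -0.08 to 0.10). The control array went against its blood label. Of the measured markers, 6 of 7 for liver and 6 of 6 for intestine passed the test as lower in foxes, against 18.5% of all genes. Their median differences were -7.31 and -8.30. Of the markers of red cell precursors 8 of 9 were higher in foxes, where 44.6% of all genes were. The median difference over the 9 was 1.01, beside 0.53 for all genes. ALAS2 had the largest difference of them (6.66), and HEMGN went the other way (-3.32). With 1 control array, its species, its tissue content and its array quality cannot be told apart. In bulk samples such as these, fewer cells of a type and less RNA per cell cannot be told apart either, and the part of array quality or cell content in any result below was not tested.

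Proteasome genes stood low in fox blood beside the canine control: 36 of 42 had a negative fox minus control difference, as did 31.6% of all genes. Of the 42 genes, 17 (40.5%) passed the test as lower in foxes and 3 (7.14%) as higher, where 18.5% of all tested genes were lower and 44.6% higher (limma, Benjamini-Hochberg adjusted p over all 42924 probe sets, threshold 0.05). At an unadjusted p under 0.05 there were 20 lower and 3 higher. The differences of the 17 lay between 1.47 and 4.53 in size on the log2 scale. All 11 foxes were below the control for 23 genes (54.8%, against 21.7% of all genes) and above it for 4 (9.52%, against 56.1%), namely PSMB3, PSMB11, PSMD11 and PSMF1, although other probe sets of PSMB3 and PSMD11 differ in sign, as given below. The median fox minus control difference of the proteasome genes was -1.46, while that of all genes was 0.53. Over probe sets, 30 of 84 (35.7%) were lower and 12 (14.3%) higher, against 18.9% and 42.1% of all tested probe sets.

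The count depended on how the arrays were scaled and on which foxes entered. After the 12 arrays were quantile normalized again, 9 genes were lower (against 16.4% of all genes) and 4 higher (against 33.2%). Of these, 8 of the lower and 2 of the higher genes were the same as before, and the median difference was -0.45 beside 0.41 for all genes. Relative to the median gene, the median of the proteasome genes was thus -1.99 in the deposited values and -0.86 after the second normalization. With foxes 9 to 11 alone 15 genes were lower (35.7%, against 17.7% of all genes), and 3 higher (40.8% of all genes), with a median of -0.44. With foxes 1 to 8 alone 29 were lower (69.0%, against 22.9%) and 3 higher (51.6% of all genes), with a median of -1.76. The 17 genes called with 11 foxes were all called with foxes 1 to 8, and 12 of them with foxes 9 to 11. An exact permutation test of 11 foxes against 1 array cannot give a p under 0.0833, so each call rests on the assumption in limma that the control varies as the foxes do.

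**Figure D1:**
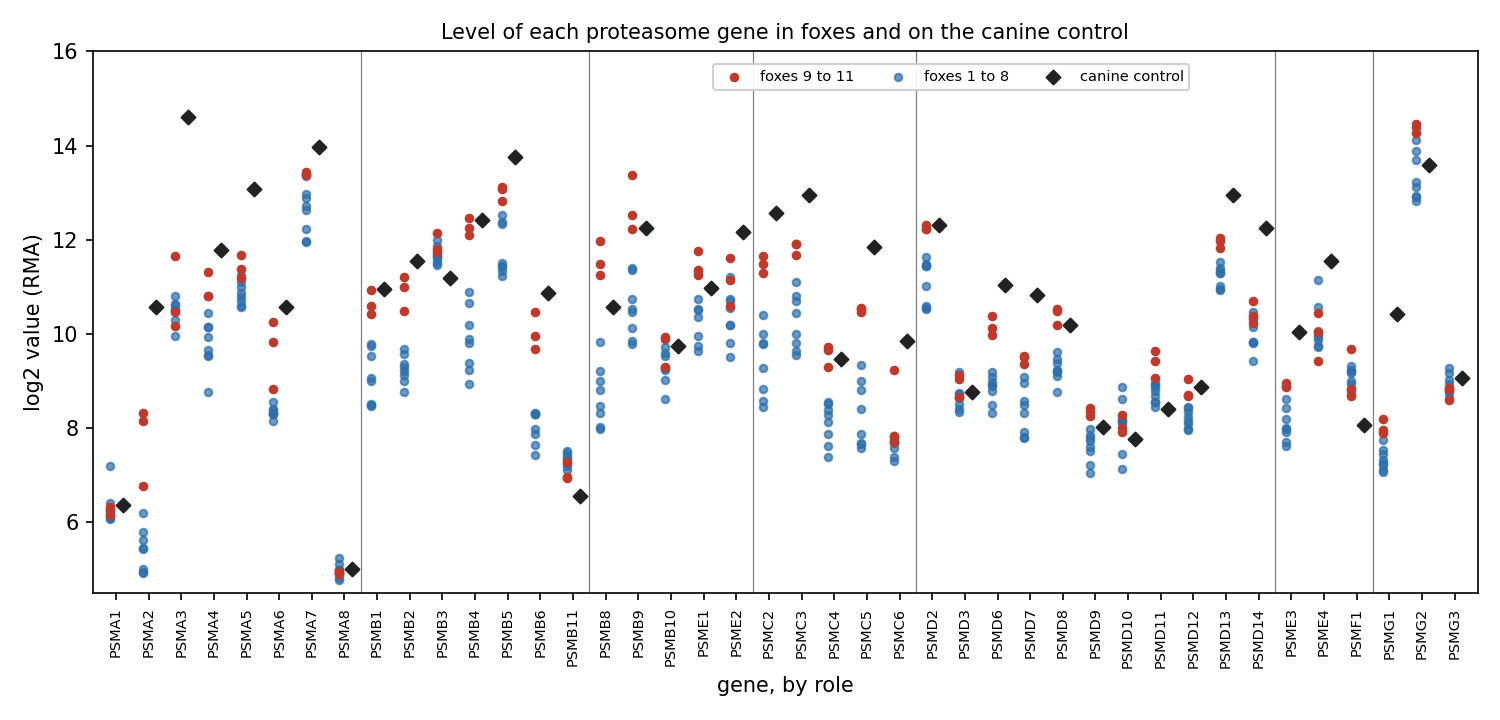
Log2 value (vertical axis) of each of the 42 proteasome genes (horizontal axis, ordered by role, with lines between roles) in foxes 9 to 11 (red circles), foxes 1 to 8 (blue circles) and on the canine control (black diamonds). The control lies above all 11 foxes for 23 genes and below all of them for 4, and foxes 9 to 11 often form the top of the fox values.

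The counts by role stand beside the shares over all tested genes, which were 18.5% lower and 44.6% higher with 11 foxes. With foxes 1 to 8 alone these shares were 22.9% and 51.6%, and with foxes 9 to 11 alone 17.7% and 40.8%. Of the 8 genes of the core alpha ring 5 were lower in foxes (6 with foxes 1 to 8, 4 with foxes 9 to 11) and none was higher. The class median of -1.78 became -0.80 after the second normalization. PSMA2, an alpha subunit of the ring, stood at 4.95, 4.92, 5.44, 6.19, 5.0, 5.45, 5.62, 5.80, 8.15, 8.32 and 6.78 in foxes 1 to 11 and at 10.58 on the control. Every fox was far below the control, and foxes 9 to 11 were the highest. Its difference was -4.53 (SE 1.14, adjusted p = 0.00525). In foxes 1 to 8 it reached down to 4.92, within the 4.78 to 5.25 of PSMA8, and without detection calls such values are not shown to lie above background, so the size of this difference is uncertain. The other probe set of PSMA2 was also lower, by -2.15 (SE 0.23, adjusted p = 9.36e-06). On it foxes 9 to 11 (3.93 to 4.27) overlapped with foxes 1 to 8 (4.05 to 4.69). PSMA3, another alpha subunit, ranged from 9.95 in fox 1 through a median of 10.51 to 11.66 in fox 10, against 14.61 on the control, a difference of -4.05 (SE 0.42, adjusted p = 7.04e-06). Unlike the PSMA2 probe set read, it did not separate the foxes: those 9 to 11 (10.16 to 11.66) overlapped with 1 to 8 (9.95 to 10.81).

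PSMA5 had a fox range of 10.57 to 11.67 with a median of 10.99, against 13.07 on the control (difference -2.06, SE 0.34, adjusted p = 3.61e-04). PSMA6 ranged from 8.16 to 10.25 with a median of 8.39, against 10.57 (difference -1.87, SE 0.66, adjusted p = 0.0271). PSMA4 ranged from 8.77 to 11.32 with a median of 10.14, against 11.79 (difference -1.69, SE 0.68, adjusted p = 0.0483). All 3 are alpha subunits and lay below the control in every fox, and after the second normalization the calls of PSMA6 (-1.07, adjusted p = 0.0868) and PSMA4 (-0.67, adjusted p = 0.255) were lost. Leaving out fox 1 or any of foxes 3 to 8 also ended the call of PSMA4 (adjusted p from 0.0552 to 0.0636). The other alpha genes were PSMA1, PSMA7 and PSMA8, the last known as a testis subunit, with differences from -1.16 to -0.05 that did not pass the test.

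In the core beta ring 1 of 7 genes was lower in foxes and 2 were higher. The share of lower genes was near the 18.5% over all genes, and the share of higher genes was below the 44.6%. With foxes 1 to 8 alone 5 were lower and 2 higher, and with foxes 9 to 11 alone 1 was lower and 1 higher. PSMB6, which carries the caspase-like cutting site, stood at 10.46, 9.96 and 9.68 in foxes 9 to 11, over the 7.43 to 8.33 of foxes 1 to 8, against 10.88 on the control. No fox reached the control, and the difference of -2.31 (SE 0.95) had an adjusted p of 0.0498 that became 0.127 after the second normalization and lay between 0.0574 and 0.0654 without any 1 of foxes 1 to 8. PSMB5, which carries the chymotrypsin-like site, stood at 13.13, 13.08 and 12.82 in foxes 9 to 11, over the 11.23 to 12.52 of foxes 1 to 8, against 13.75 on the control. Its difference of -1.64 (SE 0.70) missed the threshold (adjusted p = 0.0581) although every fox was below the control. It passed after the second normalization, with a smaller difference of -0.53 (adjusted p = 0.0384), and without fox 9, 10 or 11 (adjusted p from 0.036 to 0.0494).

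PSMB1, PSMB2 and PSMB4 are non-catalytic subunits of the beta ring, and in each of them the foxes split by array set. In foxes 9 to 11 PSMB4 lay between 12.10 and 12.47 and in foxes 1 to 8 between 8.93 and 10.89, against 12.41 on the control. Foxes 9 to 11 thus stood at the level of the control and foxes 1 to 8 well below it. The difference over 11 foxes was -1.89 (SE 1.19, adjusted p = 0.181) and that over foxes 1 to 8 was -2.54 (adjusted p = 0.00413). PSMB2 had a fox range of 8.77 to 11.22 with a median of 9.37, against 11.54 (difference -1.84, SE 0.78, adjusted p = 0.0569). PSMB1 ranged from 8.47 to 10.94 with a median of 9.54, against 10.96 (difference -1.45, SE 0.83, adjusted p = 0.144). With foxes 1 to 8 alone PSMB2 (adjusted p = 7.70e-05) and PSMB1 (adjusted p = 0.00724) were lower, and leaving out fox 9, 10 or 11 singly was enough for PSMB2 (adjusted p from 0.0201 to 0.0463). The 2 genes called higher, named after their values were seen, were PSMB3, a structural beta subunit (difference 0.55, SE 0.21, adjusted p = 0.0396), and PSMB11, the thymus-specific subunit (difference 0.69, SE 0.20, adjusted p = 0.012). With each array centred on its median neither passed. The higher call of PSMB3 held for 1 of its 3 probe sets: the others differed by -0.81 (adjusted p = 0.26) and -0.92 (adjusted p = 0.307), and with foxes 1 to 8 alone both were lower (-1.15, adjusted p = 0.00768, and -1.33, adjusted p = 0.0101).

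**Figure D2:**
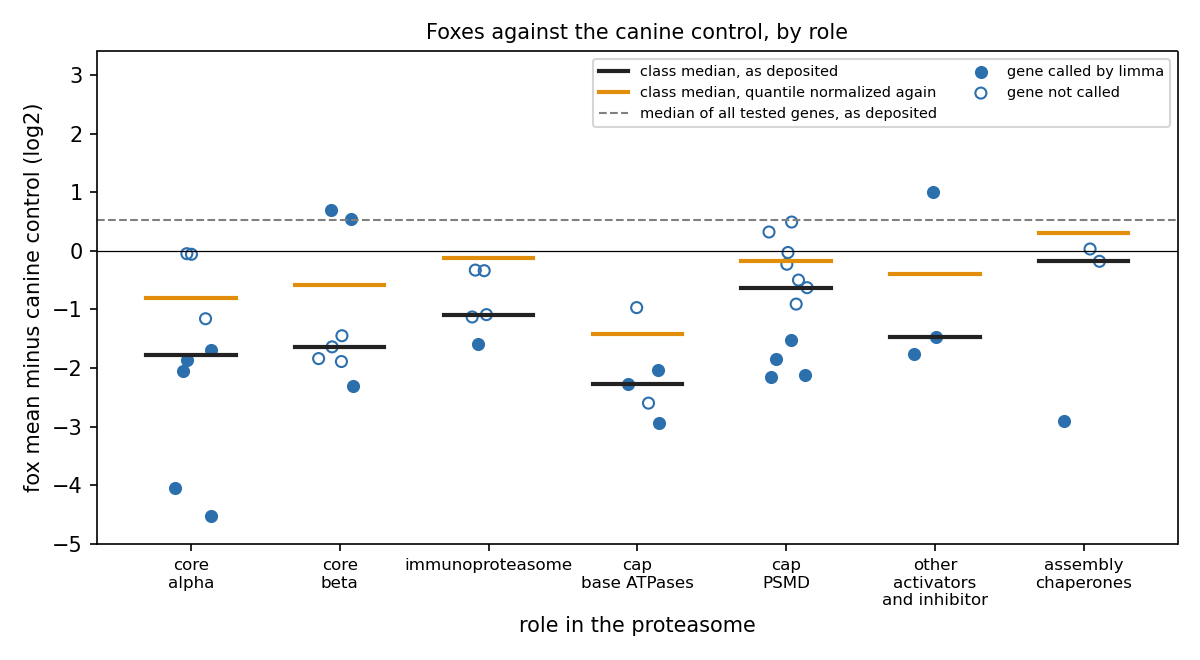
Fox mean minus canine control on the log2 scale (vertical axis) for each of the 42 genes, by role (horizontal axis), filled where limma called the gene and open where not. Black bars are class medians in the deposited values and orange bars those after the second quantile normalization; the base ATPases have the lowest median on both scales (-2.27 and -1.42) and the median of the assembly chaperones changes sign between them (-0.18 and 0.31).

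Of the 5 immunoproteasome genes 1, PSME2, was lower in foxes and none was higher. The share of lower genes was near the 18.5% over all genes. The class median of -1.09 became -0.12 after the second normalization. The class median against the control changed sign between the array sets: it was 0.46 with foxes 9 to 11 alone (0 lower, 0 higher) and -1.72 with foxes 1 to 8 alone (3 lower, 0 higher). PSMB8, which replaces PSMB5 in the immunoproteasome, stood at 8.02, 7.97, 8.81, 8.99, 8.32, 8.47, 9.22, 9.82, 11.98, 11.49 and 11.25 in foxes 1 to 11 and at 10.58 on the control. The control thus fell between foxes 9 to 11, all above it, and foxes 1 to 8, all below it, and the difference over 11 foxes was -1.09 (SE 1.37, adjusted p = 0.499). Over foxes 1 to 8 alone it was -1.87 (adjusted p = 0.0131), and over foxes 9 to 11 alone 1.0 (adjusted p = 0.0517).

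PSMB9, which replaces PSMB6, stood at 10.13, 10.74, 10.52, 10.47, 9.84, 9.79, 11.40, 11.36, 13.38, 12.23 and 12.52 in foxes 1 to 11 and at 12.26 on the control. Foxes 9 and 11 were above the control and the other foxes below it (difference -1.13, SE 1.11, adjusted p = 0.386), and foxes 1 to 8 alone were lower (difference -1.72, adjusted p = 0.0172). PSMB10, the third induced cutting subunit, had a narrow fox range of 8.61 to 9.94 with a median of 9.29, against 9.74 (difference -0.34, SE 0.38, adjusted p = 0.457). PSME1, a subunit of the interferon-induced activator, ranged from 9.63 to 11.76 with a median of 10.53, against 10.98 (difference -0.33, SE 0.67, adjusted p = 0.678). Its partner PSME2 ranged from 9.50 to 11.61 with a median of 10.60, against 12.16, and was lower in all 11 foxes (difference -1.59, SE 0.60, adjusted p = 0.0347). That call was lost after the second normalization (-0.55, adjusted p = 0.254).

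The ATPases of the cap base, which unfold the substrate and open the gate of the core, had the lowest class median, -2.27, and -1.42 after the second normalization. Of the 5 genes 3 were lower in foxes and none was higher, with 5 lower in foxes 1 to 8 alone and 3 in foxes 9 to 11 alone. PSMC5 stood at 7.58, 8.41, 7.68, 8.99, 7.88, 7.66, 8.81, 9.34, 10.54, 10.46 and 10.56 in foxes 1 to 11 and at 11.84 on the control. Every fox was below the control and foxes 9 to 11 lay close together above the rest (difference -2.94, SE 1.12, adjusted p = 0.0381). The values of PSMC2 were 11.29 to 11.66 in foxes 9 to 11, well over the 8.44 to 10.41 of foxes 1 to 8, against 12.56 on the control (difference -2.60, SE 1.09, adjusted p = 0.0543). Those of PSMC3 were 11.68 to 11.91 in foxes 9 to 11, over the 9.56 to 11.10 of foxes 1 to 8, against 12.96 (difference -2.27, SE 0.84, adjusted p = 0.0331). PSMC2 passed in foxes 1 to 8 alone (-3.17, adjusted p = 0.00164) and in foxes 9 to 11 alone (-1.08, adjusted p = 0.0137), and also without fox 9, 10 or 11 (adjusted p from 0.0285 to 0.0406), while PSMC5 missed without fox 2 or fox 7 (adjusted p = 0.0505 each). PSMC3 and the remaining called ATPase, PSMC6 (a difference of -2.04 named after its value was seen), were also lower after the second normalization, while PSMC5 was not (-2.08, adjusted p = 0.0851).

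Of the 11 PSMD genes of the cap 4 were lower in foxes and none was higher, with a median of -0.63 that became -0.18 after the second normalization. With foxes 1 to 8 alone 7 were lower, and with foxes 9 to 11 alone 4 were lower and 1 was higher. The higher one, PSMD11 (0.97, adjusted p = 0.0322), and the fourth lower one, PSMD13 (-1.53, adjusted p = 0.00472, and 0.312 after the second normalization), are named after their values were seen. PSMD11 depended on the probe set read: its other probe set was lower, by -1.13 (adjusted p = 0.015) with foxes 9 to 11 alone and -2.36 (SE 0.78, adjusted p = 0.0203) with all 11. PSMD14, the enzyme that removes the ubiquitin chain from the substrate at the cap, stood at 9.42, 10.47, 10.14, 10.31, 9.80, 9.82, 9.82, 10.34, 10.24, 10.39 and 10.71 in foxes 1 to 11 and at 12.25 on the control. The foxes lay close together and all far below the control, with a difference of -2.12 (SE 0.37, adjusted p = 5.14e-04) that also passed after the second normalization (-1.04, adjusted p = 0.00714). PSMD7, the partner with which PSMD14 forms a dimer, ranged from 7.79 to 9.53 with a median of 8.58, against 10.83 (difference -2.16, SE 0.63, adjusted p = 0.0113). PSMD6, a scaffold subunit of the cap lid, ranged from 8.32 to 10.39 with a median of 8.98, against 11.04 (difference -1.85, SE 0.64, adjusted p = 0.0254). The calls of PSMD7 (adjusted p = 0.0674) and PSMD6 (adjusted p = 0.0857) were lost after the second normalization. PSMD2, on which shuttle proteins with bound ubiquitin dock, stood at 12.23 to 12.31 in foxes 9 to 11, over the 10.52 to 11.64 of foxes 1 to 8, against 12.32 on the control. Foxes 9 to 11 thus stood just under the control, and the difference over 11 foxes was -0.91 (SE 0.64, adjusted p = 0.227).

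The remaining activators and the inhibitor were called without exception, in opposite directions. PSME3, the nuclear activator that works without ubiquitin, ranged from 7.61 to 8.95 with a median of 8.19, against 10.05 (difference -1.76, SE 0.47, adjusted p = 0.00703), and stayed lower after the second normalization (-1.07, adjusted p = 0.0486). PSME4, a large single-chain activator, ranged from 9.43 in fox 9 to 11.15 in fox 2 with a median of 9.97, against 11.56 (difference -1.47, SE 0.46, adjusted p = 0.0151). This call held for 1 of its 3 probe sets, the others differing by 0.23 and 0.43 without passing, and it was lost after the second normalization (-0.40, adjusted p = 0.507). PSMF1, a protein that inhibits the core in the test tube, stood at 8.94, 8.80, 8.73, 9.01, 9.32, 9.23, 9.16, 9.21, 9.68, 8.82 and 8.69 in foxes 1 to 11 and at 8.06 on the control. All foxes were above the control, a difference of 1.0 (SE 0.30, adjusted p = 0.0123) that passed after the second normalization (1.13, adjusted p = 0.024) and narrowly missed with each array centred on its median (0.73, adjusted p = 0.0543).

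Among the chaperones that assemble the core, PSMG1 and PSMG2, which work as a pair on the alpha ring, differed in their distance from the control. Within the foxes both had foxes 9 to 11 all above foxes 1 to 8 in the deposited values (shifts of the medians 0.68 and 1.22). PSMG1 stood at 7.06, 7.25, 7.44, 7.75, 7.11, 7.32, 7.21, 7.54, 7.96, 7.90 and 8.20 in foxes 1 to 11 and at 10.42 on the control, a difference of -2.90 (SE 0.37, adjusted p = 4.68e-05) that also passed after the second normalization (-2.13, adjusted p = 5.48e-04). PSMG2 ranged from 12.83 to 14.46 with a median of 13.70, against 13.59 (difference 0.03, SE 0.61, adjusted p = 0.974), so the control fell inside the foxes. After the second normalization PSMG2 was higher in foxes (1.12, adjusted p = 6.63e-04). PSMG3, a chaperone of the same step, ranged from 8.59 to 9.28 with a median of 8.82, against 9.06 (difference -0.18, SE 0.21, adjusted p = 0.48). Its second probe set was higher in foxes (difference 0.74, SE 0.24, adjusted p = 0.0194, and 0.0358 after the second normalization).

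Probe sets of the same gene did not always move together. A total of 27 genes had more than 1 probe set, at most 4, and in 2 of them probe sets were called in opposite directions. PSMC3 had differences of -2.27 and -3.51 (adjusted p = 0.0331 and 0.00962) on 2 probe sets and of 0.97 (adjusted p = 8.27e-04) on another. PSMD10, an oncoprotein that also chaperones the base (its highest probe set ranged from 7.14 to 8.88 in foxes with a median of 8.15, against 7.76), had differences of -3.22 (adjusted p = 6.02e-04), 0.90 (adjusted p = 0.00164) and 0.32 (SE 0.46, adjusted p = 0.559). The direction of these 2 genes therefore depends on the probe set read. Other genes had called probe sets beside an uncalled one that was read, for example PSMD11 and PSMG3 above, PSMB10 (0.48, adjusted p = 0.0281) and PSMB5 (0.69, adjusted p = 0.0138). Over the 59 pairs of probe sets that share a gene, the median correlation across foxes 1 to 8 was 0.33 and 39 were above 0. The 45 probe sets with the suffix _s_at, which on this array type can match several transcripts, had a median difference of -1.64 (0.40 for all such probe sets), and the 35 with _at had -0.18 (0.49 for all such).

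Genes that work with the proteasome were read from lists of known partners, whose counts stand beside 18.5% lower and 44.6% higher over all tested genes. Of 14 measured proteasome partners 5 were lower in foxes and 3 higher, with a median of -0.86 that became -0.15 after the second normalization. Of 9 subunits of the COP9 signalosome, a relative of the cap lid, 5 were lower and 1 higher, with a median of -1.55 that became -0.89. SEM1, the smallest cap subunit, ranged from 7.67 to 8.92 with a median of 8.22 in foxes, against 12.07 on the control (difference -3.85, SE 0.40, adjusted p = 6.48e-06). USP14, a deubiquitinase of the cap, ranged from 9.04 to 10.88 with a median of 9.81, against 12.16 (difference -2.36, SE 0.47, adjusted p = 0.00137). Both lay below the control in every fox, as did UCHL5, the other reversible cap deubiquitinase (difference -1.51, SE 0.40, adjusted p = 0.00722), whose call was lost after the second normalization (-0.41, adjusted p = 0.399). The ubiquilins, shuttle proteins that bring substrates to the cap, split: UBQLN1 was lower (difference -1.81, SE 0.17, adjusted p = 2.37e-06), while UBQLN2 (1.14, SE 0.28, adjusted p = 0.00458) and UBQLN4 (1.49, SE 0.40, adjusted p = 0.00727, and 0.0531 after the second normalization) were higher.

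Of 13 measured genes of ubiquitin supply 4 were lower and none was higher, with a median of -0.74 that became 0.09 after the second normalization. The 4 were RPS27A, which encodes ubiquitin fused to a ribosomal protein (difference -2.65, SE 0.62, adjusted p = 0.00327), the activating enzyme UBA6, and the conjugating enzymes UBE2D2 and UBE2N. The calls of UBE2D2 (adjusted p = 0.854) and UBE2N (adjusted p = 0.637) were lost after the second normalization. Of 11 measured genes around NFE2L1, the transcription factor that raises proteasome genes when the proteasome is blocked, and VCP, the segregase that frees it, 1 was lower and 4 were higher, with a median of 0.40 that became 0.25 after the second normalization. The share of higher genes was near that over all genes. NFE2L1 itself was the lower one: it ranged from 8.01 to 9.16 with a median of 8.39 in foxes, against 9.86 on the control (difference -1.41, SE 0.37, adjusted p = 0.00652). DDI2, the protease that cuts NFE2L1 into its active form, was higher by 0.40 (SE 0.14, adjusted p = 0.0262), but not after the second normalization (0.25, adjusted p = 0.205). Of 11 measured genes of class I presentation 2 were lower and 2 higher, with a median of -0.50 that became 0.23 after the second normalization, so its share of lower genes was near that over all genes and its share of higher genes was below it.

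Within the foxes the proteasome genes varied more than most genes. An SD of at least 0.5 over the 11 foxes was found for 23 of 42 genes (54.8%, against 18.3% of all genes), and over foxes 1 to 8 for 13 (31.0%, against 9.61%). The median SD was 0.58 over 11 foxes, against 0.23 for all genes, and 0.36 over foxes 1 to 8, against 0.19. A wide spread was not particular to proteasome genes. Over 11 foxes the median SD was 0.71 for class I presentation, 0.57 for ubiquitin supply and 0.56 for the COP9 signalosome. For the genes around NFE2L1 it was 0.47 and for the proteasome partners 0.46. Foxes 9 to 11 were all above foxes 1 to 8 for 26 genes (61.9%, against 14.2% of all genes) and all below for none (against 14.6%). The medians of foxes 9 to 11 and 1 to 8 differed by 0.85 over the proteasome genes and by -0.08 over all genes. This shift was 1.27 for class I presentation, 0.66 for the genes around NFE2L1 and 0.59 for ubiquitin supply. It was 0.46 for the COP9 signalosome and 0.28 for the proteasome partners. By role this shift was 1.69 for the base ATPases, 1.61 for the beta ring, 0.92 for the immunoproteasome, 0.68 for the PSMD genes and for the assembly chaperones, 0.63 for the alpha ring and 0.10 for the other activators and inhibitor. After the second normalization 15 genes kept foxes 9 to 11 all above (35.7%, against 9.06%). PSMA7, PSME4 and PSMG3 had them all below (17.9% of all genes), and the shift was 0.17 beside -0.11. For PSME4 this depended on the probe set read, as did the shift of 0.10 for its class. On the other probe sets of PSME4 foxes 9 to 11 were all above in the deposited values (shifts 1.6 and 1.6). After the second normalization these probe sets were above or overlapped.

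**Figure D3:**
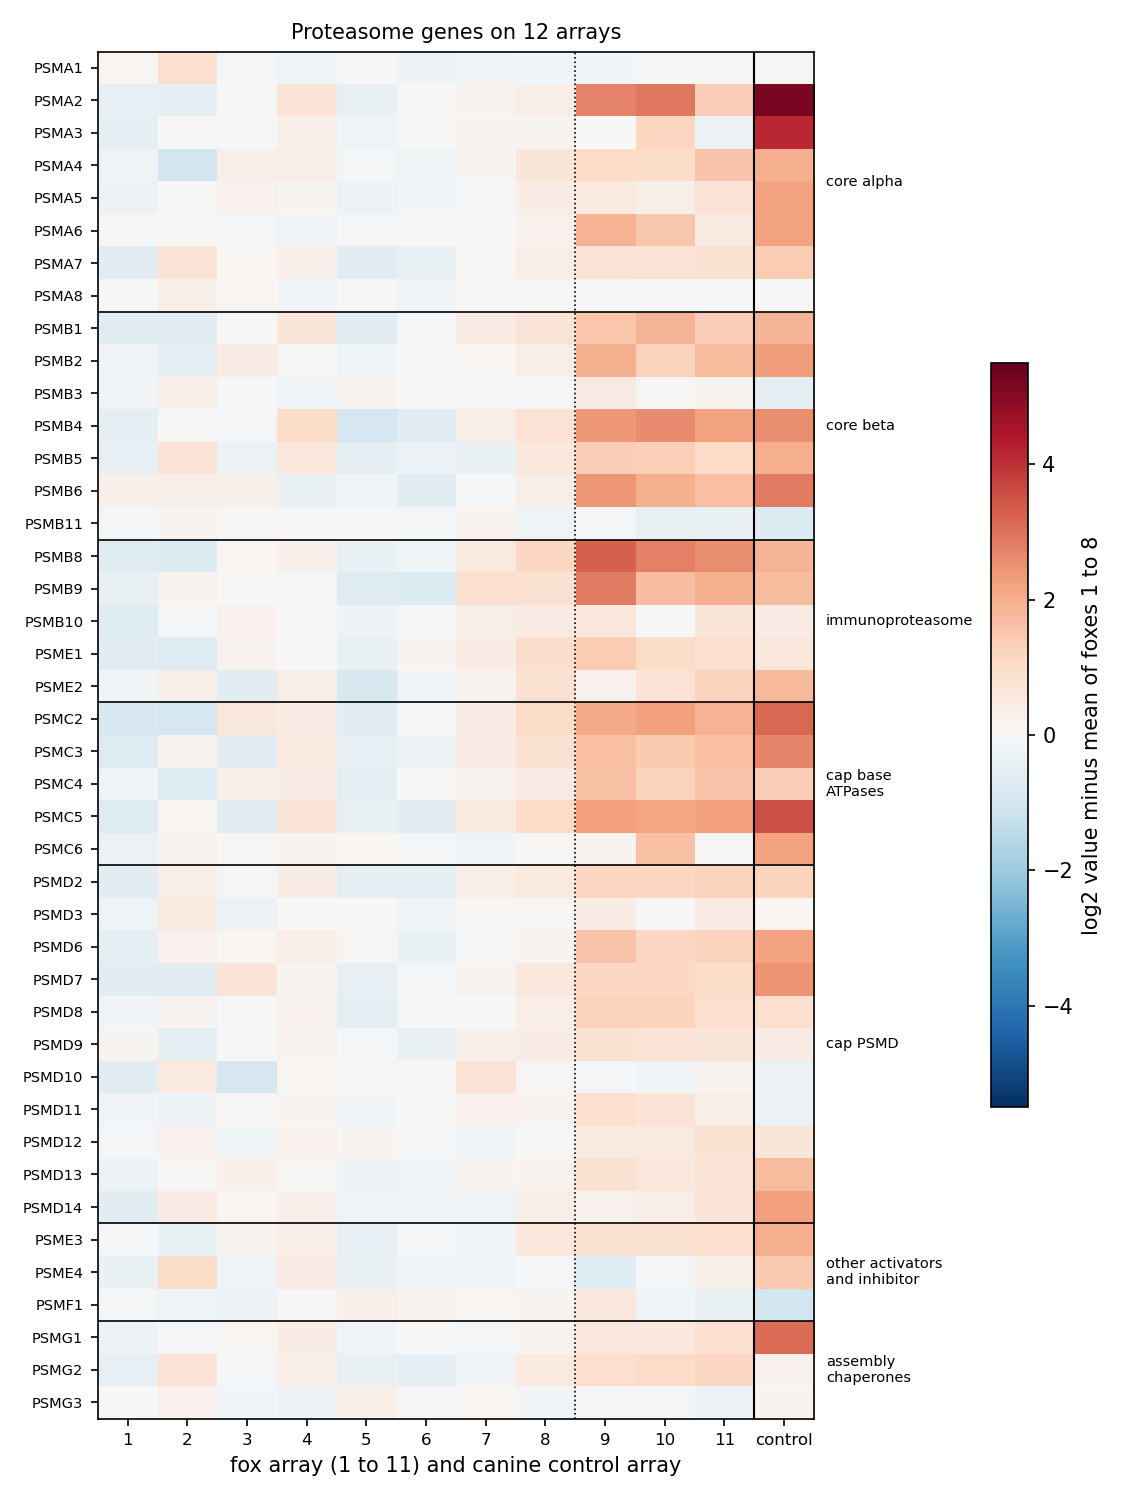
Log2 value minus the mean of foxes 1 to 8 (colour) for the 42 proteasome genes (rows, by role) in foxes 1 to 11 and on the canine control (columns). The red of foxes 9 to 11 runs through most genes of the beta ring, the immunoproteasome and the base ATPases. It is weak or missing for genes such as PSMA3, PSMB3, PSMB11, PSMC6, PSMD10 and PSMG3, and is deeper than the red of the control for PSMB8.

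The order of single genes shows how far the arrays differ within each role. The largest shift on the probe sets read, between the medians of foxes 9 to 11 and 1 to 8, was that of PSMB8, 2.85. It was followed by PSMA2 with 2.71, PSMC5 with 2.40 and PSMB4 with 2.39. The other probe set of PSMA2 shifted by -0.09 and overlapped, and that of PSMB8 shifted by 1.11. PSMB9 shifted by 2.03, but after the second normalization its values in foxes 9 to 11 and 1 to 8 overlapped, while PSMB8 stayed apart. On the probe sets read, the other immunoproteasome genes shifted less and overlapped in the deposited values. PSME1 stood at 11.26 to 11.76 in foxes 9 to 11 and at 9.63 to 11.31 in foxes 1 to 8. PSMB10 stood at 9.29 to 9.94 in foxes 9 to 11 and at 8.61 to 9.73 in foxes 1 to 8. Foxes 9 to 11 were all above foxes 1 to 8 on other probe sets of PSME1 (shifts 1.55 and 1.57) and PSME2 (1.3). The remaining probe sets of PSME1 (-0.3) and PSME2 (-0.16) overlapped. On the probe set of PSMB10 that was not read (-0.22), foxes 9 to 11 were all below. No test compared the array sets, since the labels do not define them.

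The difference between each induced subunit and the standard subunit it replaces, taken relative to its mean in foxes 1 to 8, did not behave alike for both pairs. PSMB8 minus PSMB5 was 1.48 to 1.92 in foxes 9 to 11, against -1.48 to 0.87 in foxes 1 to 8, with the control at -0.11. On the probe sets read, foxes 9 to 11 were thus above all others, and fox 2 was the lowest. This depends on the probe set. The medians of foxes 9 to 11 and 1 to 8 differed by 2.85 for the PSMB8 probe set read, but by 1.11 for its other one. For PSMB5 they differed by 1.61 for the probe set read, and by 1.77 and -0.04 for the others. PSMB9 minus PSMB6 was -0.24 to 0.41 in foxes 9 to 11, against -0.68 to 0.92 in foxes 1 to 8, with the control at -1.14, so the fox sets overlapped and the control was below them all. After the second normalization the first difference was 1.98 to 2.39 in foxes 9 to 11 (-1.02 to 1.02 in foxes 1 to 8), and the second was -1.03 to -0.32 in foxes 9 to 11 (-0.41 to 0.98 in foxes 1 to 8).

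Within foxes 1 to 8 the highest value of a gene fell in fox 8 for 17 of the 42 genes, while 12.2% of all genes were highest there, and in fox 2 for 11, while 26.6% of all genes were. No proteasome gene was highest in fox 1 or in fox 6, while 10.1% and 9.2% of all genes were. The lowest value fell in fox 1 for 11 genes (19.3% of all genes), and in fox 2 and fox 5 for 9 each (17.1% and 12.1%). The mean of the 42 genes relative to foxes 1 to 8 was -0.33 in fox 1, 0.03 in fox 2, 0.00 in fox 3, 0.22 in fox 4, -0.27 in fox 5, -0.18 in fox 6, 0.13 in fox 7, 0.39 in fox 8, 1.05 in fox 9, 0.97 in fox 10, 0.91 in fox 11 and 1.53 on the control. It followed the spread of the whole array, being low on arrays with a narrow spread of all values and high on those with a wide one.

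**Figure D4:**
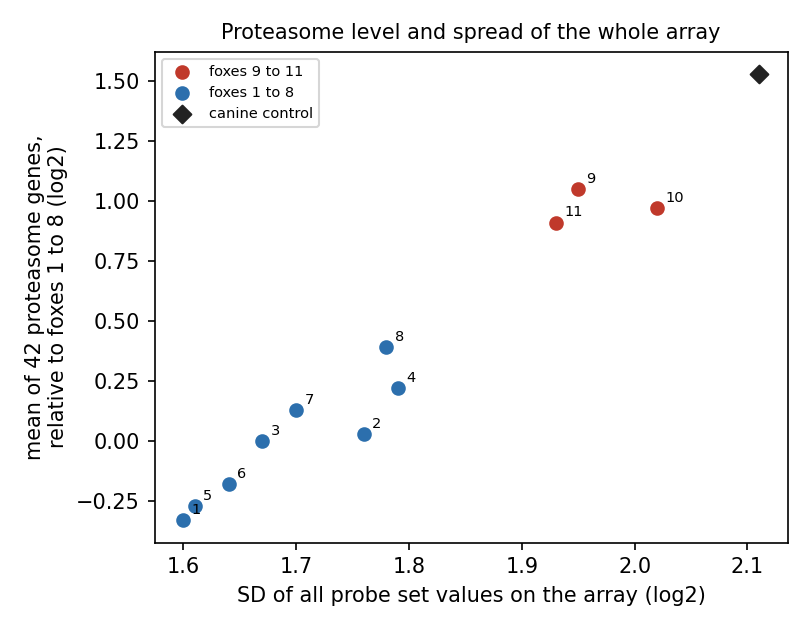
Mean of the 42 proteasome genes relative to foxes 1 to 8 (vertical axis, log2) against the SD of all probe set values on the array (horizontal axis, log2) for foxes 9 to 11 (red), foxes 1 to 8 (blue, numbered) and the canine control (black diamond). The points climb broadly together, from fox 1 at -0.33 to the control at 1.53.

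Across foxes 1 to 8 the median Pearson correlation over the 861 pairs of proteasome genes was 0.35, and 74.4% of the pairs were above 0, beside 0.02 and 51.9% for pairs drawn at random from all genes. After the second normalization it was 0.04, beside 0.00, so the level of agreement depended on the scaling. The immunoproteasome genes had a median of 0.70, with all 10 pairs between 0.45 and 0.95, and 0.44 after the second normalization. The base ATPases had 0.44 and then 0.31, the PSMD genes 0.37 and then -0.00, the alpha ring 0.20, and the beta ring 0.09 and then -0.04. The points of each correlation share 8 arrays and their spread of values. Single genes that correlated most with the rest were PSMB4 (median r 0.65), PSMB1 (0.64), PSMA5 (0.63) and PSMB8 (0.62), and those that did so least were PSMG3 (-0.28) and PSMB3 (-0.10).

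A set of 8 gene pairs was tested within foxes 1 to 8, and 1 pair passed by both measures. PSMB9 and TAP1, a subunit of the transporter that carries proteasome peptides into the endoplasmic reticulum, had r = 0.95 (exact two-sided permutation p = 4.22e-04, adjusted over the 8 pairs 0.00337) and Spearman's rho of 0.95 (exact p = 0.00114, adjusted 0.00913). In the fox annotation these 2 genes are direct neighbours, in the order PSMB9, TAP1, PSMB8 and TAP2. Without the 2 foxes farthest from the median of PSMB9, r was 0.88, and after the second normalization it was 0.90 (exact permutation, adjusted p = 0.0206). TAP1 stood at 8.32, 8.59, 8.38, 8.29, 8.05, 7.64, 8.88, 9.04, 9.71, 11.07 and 10.18 in foxes 1 to 11 and at 11.07 on the control. Foxes 9 to 11 were also high in both genes, but fox 9 had the highest PSMB9 of these and the lowest TAP1.

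PSMB8 and TAP1, neighbours as well, had r = 0.59 (exact permutation p = 0.126, adjusted 0.202). PSMB8 and PSMB10, which lie apart in the fox annotation, had r = 0.82 (exact permutation p = 0.0129, adjusted 0.0515) and rho = 0.90 (exact p = 0.00456, adjusted 0.0183), so this pair passed by rank alone. Its r was 0.89 without the 2 farthest foxes and 0.73 after the second normalization (exact permutation, adjusted p = 0.157). The pair was tested on 1 probe set per gene. Across foxes 1 to 8 the probe sets of PSMB8 had r = 0.22 with each other, and those of PSMB10 -0.28. The pairs PSMB8 with PSMB9 (r = 0.70, rho = 0.50) and PSMB9 with PSMB10 (r = 0.71, rho = 0.69) did not pass (exact permutation, adjusted p = 0.113 for r in each), and the second had r = 0.39 without the 2 farthest foxes. PSME1 and PSME2, the partners of 1 activator, had r = 0.45 (exact permutation p = 0.261, adjusted 0.298) and rho = 0.21. Nor did the induced subunits pass with the standard ones they replace: PSMB5 with PSMB8 had r = 0.26 (exact permutation p = 0.54) and PSMB6 with PSMB9 had r = 0.47 (exact permutation p = 0.233, adjusted 0.298). For PSMB5 with PSMB8, r was 0.84 without the 2 farthest foxes and -0.37 after the second normalization.

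**Figure D5:**
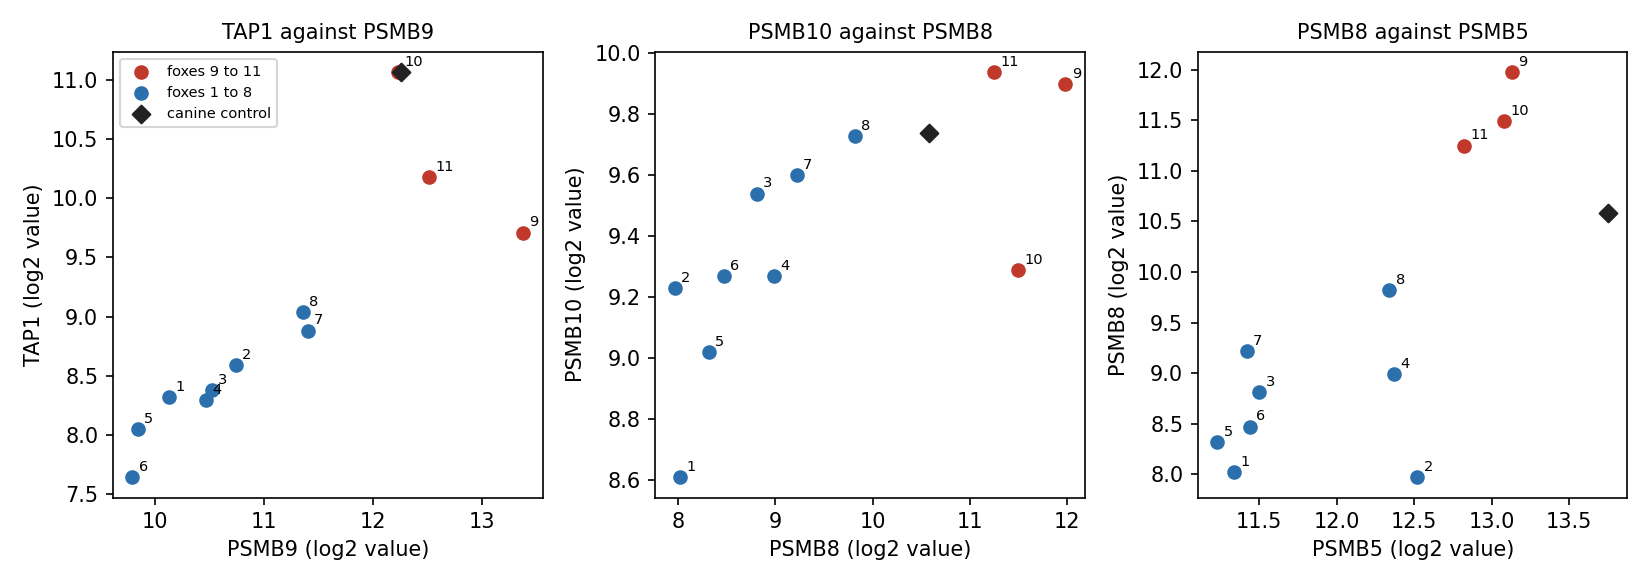
Log2 values of TAP1 against PSMB9 (left), PSMB10 against PSMB8 (middle) and PSMB8 against PSMB5 (right) in foxes 9 to 11 (red), foxes 1 to 8 (blue, numbered) and on the canine control (black diamond). TAP1 climbs with PSMB9 over foxes 1 to 8 (r = 0.95), whereas fox 2 lies apart from the other foxes for PSMB8 against PSMB5 (r = 0.26).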

How the data were processed

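RNA labelled as blood was measured on 12 canine arrays. The deposited log2 values come from RMA, run by the authors, and per the submitters' processing notes Affymetrix Expression Console was used. No version is given in the sources used here, nor whether RMA took in all arrays at once. Of 43035 probe sets, 111 were array controls. There were 0 missing values and no detection calls, so no floor was set. The number of arrays limits the precision.

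From these values, limma 3.58.1 in R 4.3.3 (lmFit, eBayes) was fitted over all tested probe sets, with Benjamini-Hochberg adjustment and a threshold of 0.05. Correlations used Python 3.11.15 and scipy 1.17.1. Both were tested on simulated data. Fox numbers follow the order of the sample list. Gene symbols came from the platform annotation. The second normalization was quantile normalization of the 12 deposited arrays.

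Named genes were PSMB5, PSMB6, all immunoproteasome, PSME3, PSME4, PSMF1 and PSMG genes, those with opposite calls, and in each of 4 core and cap classes the 3 largest differences and 3 largest SDs. A planned ninth pair, PSMB7 with PSMB10, could not be tested without a probe set for PSMB7. The members, lists and tests were chosen with earlier results of these data known. The alternatives were another scaling, a filter on low values, the mean of a gene's probe sets, other calls, other measures of spread and correlation, and foxes left out. Using foxes 9 to 11 alone, and rescaling the count of genes in which they were highest, were chosen after seeing the data.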

Additional observations from a re-analysis of the deposited data

How the results depend on the processing

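The 17 genes lower and 3 higher in foxes became 9 lower after quantile normalization again, 29 lower without foxes 9 to 11, and 0 higher with arrays centred on their median or with a difference of at least 1. The median difference of -1.46 became -0.45 after quantile normalization again and -0.44 with foxes 9 to 11 alone, where the immunoproteasome median turned to 0.46. The assembly chaperones had a positive median under 2 settings, 0.31 after quantile normalization again and 0.28 when a gene's probe sets were averaged. The count with an SD of at least 0.5 was 13 in place of 23 without foxes 9 to 11, and that with foxes 9 to 11 all above was 15 in place of 26 after quantile normalization again. The median correlation of 0.35 became 0.04 after quantile normalization again and 0.61 over all 11 foxes. By role it turned to -0.04 for the beta ring and -0.00 for the PSMD genes after quantile normalization again, and to 0.00 for the assembly chaperones with the mean of probe sets. The causes were not tested.

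Leaving out 1 fox at a time gave 14 to 20 genes lower, 2 to 3 higher, a median difference of -1.53 to -1.39, 23 to 26 genes with an SD of at least 0.5, and a median correlation of 0.29 to 0.48. By role the correlation ranged from -0.11 to 0.22 for the beta ring, from -0.33 to 0.02 for the other activators and inhibitor, and from -0.59 to 0.15 for the assembly chaperones. Of the 29 named genes, 19 kept their direction and their side of the threshold after quantile normalization again, 8 lost their call and 2 gained one. Under limma with trend and robust settings 28 kept both, and with centred arrays 26. No paired analysis was possible because the control has 1 array and fox numbers only follow the sample list. Without detection calls, values near background, such as those of PSMA8, could not be told from none.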

Other observations

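Among the genes of class I presentation, the 2 lower in foxes than on the control were the endoplasmic reticulum chaperones CANX and PDIA3. CANX, which folds new glycoproteins, ranged from 10.86 to 12.92 with a median of 11.71 in foxes, against 13.99 on the control (difference -2.30, SE 0.63, limma adjusted p = 0.00813). PDIA3, a member of the peptide-loading complex, ranged from 6.83 to 11.04 with a median of 8.32, against 12.07 (difference -3.51, SE 1.39, limma adjusted p = 0.0437). Its call was lost after quantile normalization again (adjusted p = 0.0766). The 2 higher were NLRC5, the transactivator of class I and immunoproteasome genes (difference 0.96, SE 0.24, adjusted p = 0.00543), and ERAP1, which trims peptides for class I (difference 0.46, SE 0.17, adjusted p = 0.0298, lost after quantile normalization again). Of the COP9 signalosome, COPS5, its catalytic subunit, ranged from 7.05 to 9.23 with a median of 7.80 in foxes, against 10.79 on the control (difference -2.79, SE 0.77, adjusted p = 0.00857). COPS2, COPS3, COPS4 and COPS8 were lower too, and COPS7B was higher by 0.92 (SE 0.19, adjusted p = 0.00184). All 6 of these calls also passed after quantile normalization again.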
